A study of Arabidopsis thaliana with 18 samples.

Results

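The genes described here make or break down 2 kinds of compatible solute in Arabidopsis thaliana, the thale cress: proline and sugars of the raffinose family. They are the galactinol synthase genes GolS1 (AT2G47180), GolS2 (AT1G56600), GolS3 (AT1G09350) and GolS4 (AT1G60470), and the raffinose synthase gene RS5 (AT5G40390). For proline they are the synthesis genes P5CS1 (AT2G39800), P5CS2 (AT3G55610) and P5CR (AT5G14800), and the proline dehydrogenase genes ProDH1 (AT3G30775) and ProDH2 (AT5G38710). They were taken by locus code, with earlier results of these data known, and are 10 of the 34218 features in the deposited count table. All 10 passed the low-count filter that left 20869 genes to test. RNA was sequenced from 1 cm of root of seedlings 5 days old, with 50 to 100 seedlings pooled per sample. The groups were a vnd1 vnd2 vnd3 triple mutant (vnd123 below) with 1 µM abscisic acid (ABA) for 8 h, vnd123 with a mock treatment for 8 h, a vnd7 mutant with ABA, vnd7 with mock, the wild type Col-0 with ABA, and Col-0 with mock. Each group had 3 libraries, 18 in all. The labels name no alleles and do not say that the replicates were grown apart, so the p-values rest on a spread among libraries that may be only technical. The series asks which transcript changes under ABA depend on VND factors, the NAC transcription factors that switch on formation of xylem vessels.

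Compatible solutes are small soluble molecules that plant cells gather when water is short without harm to their enzymes. Galactinol synthases join galactose from UDP-galactose to myo-inositol, and raffinose synthase passes that galactose from galactinol to sucrose. P5CS turns glutamate into pyrroline-5-carboxylate, the step that sets the rate of proline synthesis, and P5CR reduces this product to proline. Proline dehydrogenase oxidises proline again in mitochondria. ABA is the hormone of drought and osmotic stress and is known to act on several of these genes.

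Library totals ran from 38325491 to 58705802 counts, and the first principal component, 62.6% of the variance, set the 9 ABA libraries apart from the 9 mock ones. VND1 was at 0 to 0.386 CPM (reads scaled to the library total) in vnd123 libraries and 0.514 to 1.48 CPM in Col-0 libraries, VND2 and VND3 were lower in vnd123 mock than in Col-0 mock by log2 fold changes of -1.99 ± 0.24 and -1.32 ± 0.14, and VND7 was at 0.227 to 0.605 CPM in vnd7 libraries and 2.135 to 5.79 CPM in Col-0 libraries. All 9 root marker genes were detected in every group. Their summed level was 5730 to 7090 CPM in ABA libraries and 8650 to 10400 CPM in mock libraries. Nearly all of that sum was PYK10, which fell under ABA in each genotype, and the other 8 root markers summed to 459 to 577 CPM in ABA libraries and 434 to 514 CPM in mock libraries. Summed over 9 shoot and photosynthesis markers, of which RBCS2B was at 0 in every group, the level was 60.6 to 74.6 CPM in vnd123 ABA and 93.7 to 121 CPM in vnd123 mock, 61.8 to 94.1 CPM in vnd7 ABA and 86.0 to 126 CPM in vnd7 mock, and 79.7 to 112 CPM in Col-0 ABA and 120 to 160 CPM in Col-0 mock. Of the 7 of them tested, 4 fell in vnd123, 3 in vnd7 and 3 in Col-0, and 0 rose. The samples are 1 cm lengths of root with cells of many types. Fewer cells of a type and less RNA per cell thus cannot be told apart. The part of these marker levels in the results was not tested.

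ABA moved these genes in both directions, with the same call in all 3 genotypes for 9 of the 10. GolS2, GolS4, RS5 and P5CS1 rose in vnd123, vnd7 and Col-0, and GolS3, P5CR and ProDH1 fell in all 3. P5CS2 fell in vnd123 and passed the test in no other genotype, while GolS1 and ProDH2 passed it in none. Counted by genotype, 4 genes rose and 4 fell of 10 in vnd123, where 18.6% of all genes tested rose and 13.8% fell. In vnd7, 4 rose and 3 fell, against 18.8% and 14.5% of all genes. In Col-0, 4 rose and 3 fell, against 17.9% and 13.4% of all genes. As the 10 genes were chosen with earlier results known, these counts describe the set and do not test it. The median log2 fold change of the 10 genes was 0.08 in vnd123, 0.08 in vnd7 and 0.37 in Col-0, beside 0.01, 0.01 and 0.00 over all genes tested. Each of these calls is an adjusted p under 0.05 in edgeR's quasi-likelihood test, with Benjamini-Hochberg adjustment over all genes tested, and log2 fold changes below are given ± SE.

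**Figure D1:**
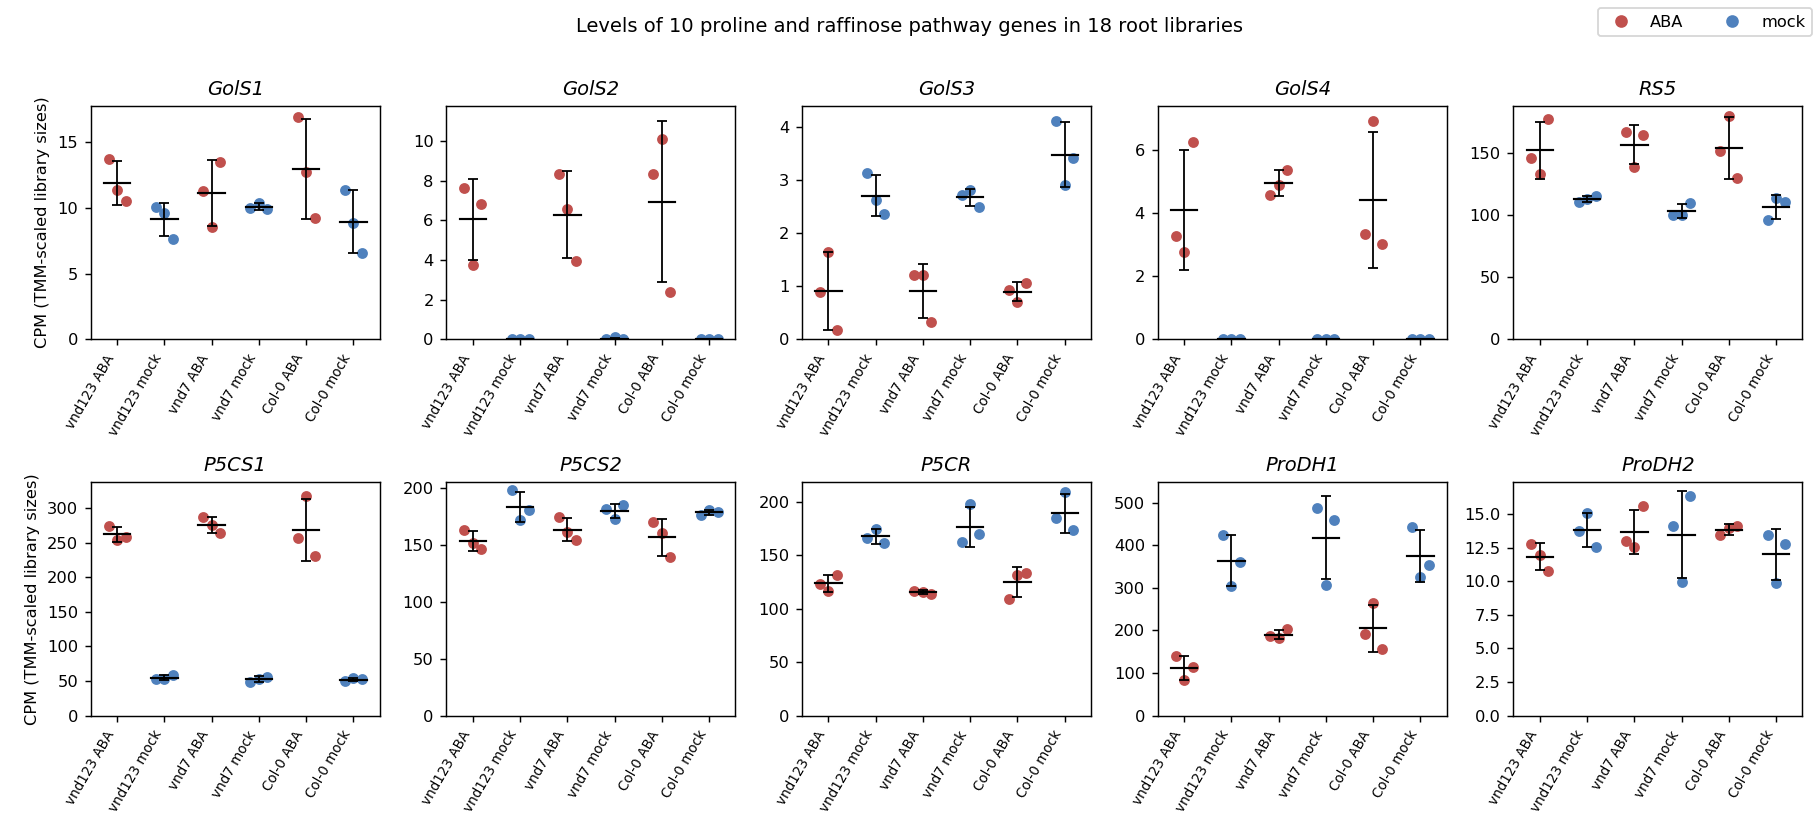
Levels of the 10 genes in each of the 18 libraries, in CPM on TMM-scaled library sizes, by group, with a line for the mean and a bar for the SD of 3 libraries. GolS2 and GolS4 sit at or near 0 in every mock library, P5CS1 is at 231 CPM or more in every ABA library and at 58.4 CPM or less in every mock library, and ProDH1 is lowest in the 3 vnd123 ABA libraries.

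GolS2 and GolS4 were all but silent without ABA. With 0 to 6 reads in each mock library, both met the low-count filter through their ABA libraries alone. The adjusted p of each for ABA against mock thus rests on the same ABA reads that admitted it to the test. Both kept their ABA calls in each genotype with no low-count filter. GolS2, a galactinol synthase gene known to respond to drought and salt, had 7.62, 3.74 and 6.82 CPM in the vnd123 ABA libraries, against 0 reads in each of the 3 vnd123 mock libraries. In vnd7 it had 8.33, 6.59 and 3.95 CPM in ABA, against 0, 6 and 0 reads in mock. In Col-0 it had 8.34, 10.11 and 2.39 CPM in ABA, against 1, 0 and 1 reads in mock. Every ABA library was above every mock library of its genotype. The Col-0 ABA libraries spread most, from 2.39 to 10.11 CPM. Summed over a group, the 821 ABA reads of vnd123 set GolS2 at least 332.9-fold higher than mock, with 3 counts over the group as the floor. The ratio was 179 in vnd7 (968 reads against 6, 95% interval 81.8 to 488), where all 6 mock reads came from 1 library, and 492 in Col-0 (812 reads against 2, interval 136 to 4072). These bounds and intervals cover counting error only. The adjusted p was 3.1e-07 in vnd123, 4.1e-07 in vnd7 and 3.3e-07 in Col-0.

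GolS4, a less studied member of the family, followed the same pattern. Its mean level per kilobase of coding sequence was lower than that of GolS2 in every ABA group, but the libraries of both genes overlapped in each. It had 3.27, 2.76 and 6.25 CPM in the vnd123 ABA libraries, against 1, 0 and 0 reads in the vnd123 mock libraries. The vnd7 libraries gave 4.57, 4.90 and 5.36 CPM in ABA, against 0, 1 and 1 reads in mock, and the Col-0 libraries gave 3.32, 6.89 and 3.03 CPM in ABA, against 1, 0 and 0 reads in mock. All 9 ABA libraries were thus above all 9 mock libraries. The ratio was 640 in vnd123 (526 reads against 1, interval 114 to 25320), 411 in vnd7 (742 against 2, interval 113 to 3399) and 635 in Col-0 (524 against 1, interval 114 to 25140). The adjusted p was 4.1e-09, 1.8e-09 and 3.8e-09 in the same order of genotypes. GolS4 shares 83.0% of its coding bases with its neighbour in the family GolS7, with a longest identical run of 53 bases, and GolS7 had 2 reads in all, both in ABA libraries. GolS4 also overlaps AT1G60460 on the opposite strand by 33 bases, and the library kit does not mark strand. That partner had 15 to 61 reads per library and passed the test in no genotype.

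GolS3, the family member best known for its response to cold, went the other way. It had 0.888, 1.65 and 0.181 CPM in the vnd123 ABA libraries, against 3.14, 2.63 and 2.36 CPM in the vnd123 mock libraries. In vnd7 it had 1.21, 1.21 and 0.321 CPM in ABA, against 2.71, 2.82 and 2.50 CPM in mock. In Col-0 it had 0.937, 0.703 and 1.05 CPM in ABA, against 4.12, 2.91 and 3.43 CPM in mock. The groups did not overlap in any genotype, though the mutant ABA libraries spread widely, down to 7 reads in vnd123 ABA replicate 3. The log2 fold change was -1.58 ± 0.44 in vnd123 (adjusted p 0.0091), -1.54 ± 0.43 in vnd7 (0.0092) and -1.95 ± 0.44 in Col-0 (0.0019). The vnd123 value was -2.28 without vnd123 ABA replicate 2 and -1.13 without vnd123 ABA replicate 3, and it kept its call without either.

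GolS1, known for its response to drought, salt and heat, had the highest level per kilobase of coding sequence among GolS1 to GolS4 in every mock group and passed the test for ABA in none of the 3 genotypes. It averaged 11.9 ± 1.66 CPM in vnd123 ABA and 9.12 ± 1.28 CPM in vnd123 mock (SD, n = 3 each, as for all means below). It averaged 11.1 ± 2.50 CPM in vnd7 ABA and 10.08 ± 0.25 CPM in vnd7 mock, and 12.9 ± 3.82 CPM in Col-0 ABA and 8.93 ± 2.40 CPM in Col-0 mock. The libraries of ABA and mock overlapped in vnd7 and Col-0. The log2 fold change was 0.38 ± 0.21 in vnd123 (adjusted p 0.17), 0.14 ± 0.21 in vnd7 (0.65) and 0.54 ± 0.21 in Col-0 (0.057), and the last passed with other settings (DESeq2, adjusted p 0.039). GolS1 overlaps AT2G47170 on the opposite strand by 43 bases, and that gene rose in vnd123 (log2 0.33, adjusted p 0.0057), vnd7 (0.25, 0.027) and Col-0 (0.25, 0.029). Its part in the GolS1 counts was not tested.

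Per kilobase of coding sequence, the 4 galactinol synthase genes summed to 22.4 ± 3.02 CPM in vnd123 ABA and 11.5 ± 1.603 CPM in vnd123 mock, to 22.8 ± 2.04 in vnd7 ABA and 12.4 ± 0.447 in vnd7 mock, and to 24.7 ± 8.09 in Col-0 ABA and 12.1 ± 2.73 in Col-0 mock. GolS1 held 51.4% of it in vnd123 ABA and 76.5% in vnd123 mock, 47.0% in vnd7 ABA and 78.3% in vnd7 mock, and 51.9% in Col-0 ABA and 70.7% in Col-0 mock. GolS2 and GolS4, each under 0.3% of the sum in every mock group, held 25.9% to 27.3% and 18.02% to 21.7% in the ABA groups. GolS3 held 4.01% to 4.30% in the ABA groups and 21.4% to 29.1% in the mock groups.

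**Figure D2:**
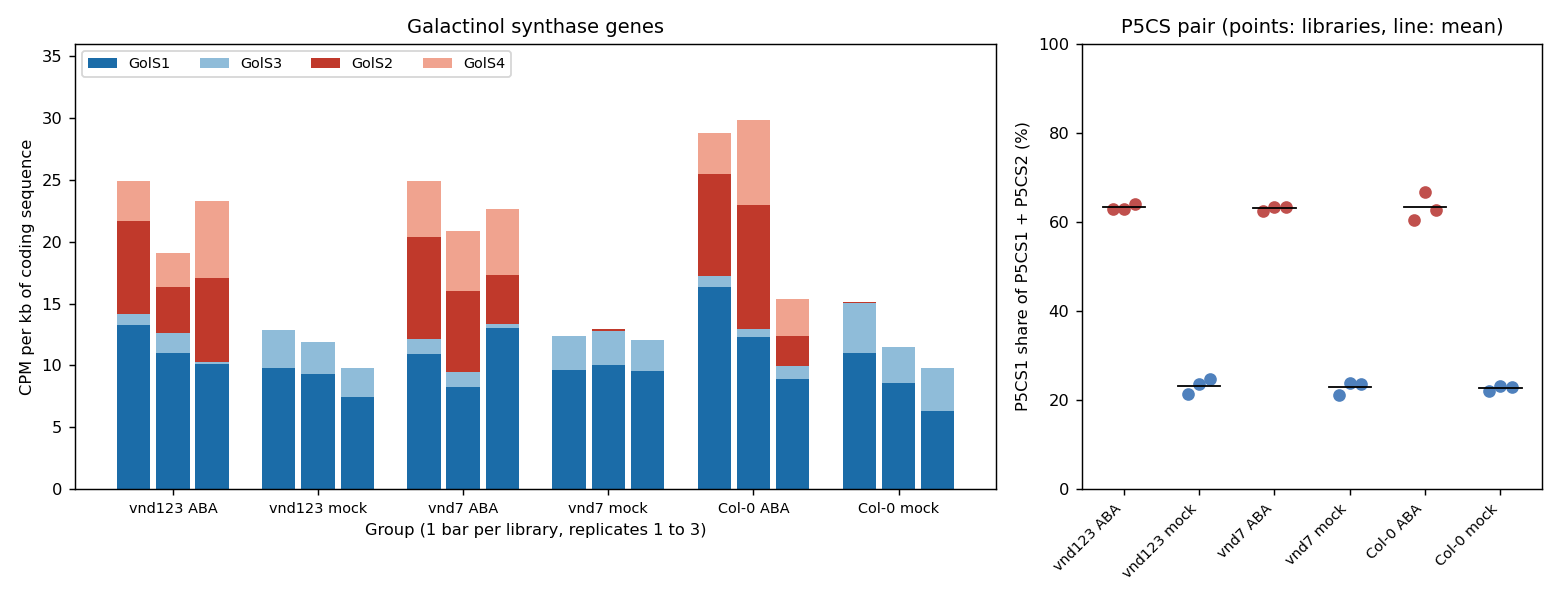
Left, levels of GolS1 to GolS4 per kilobase of coding sequence, stacked, with 1 bar per library. Right, the share of P5CS1 in the sum of P5CS1 and P5CS2 per kilobase, with a point per library and a line for the mean, about 63% in the ABA groups and about 23% in the mock groups.

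The 300 bases upstream of GolS2, GolS3 and GolS4 are shown because GolS2 and GolS4 had the highest ratios of ABA to mock of the 10 genes and GolS3, of the same family, fell. They were read by locus code from the RefSeq annotation of TAIR10.1, and the build behind the counts is not given in the sources used here. Capitals mark matches on either strand to any of 6 motifs. The core of ABA-responsive elements (ABRE core below) is ACGTG. Its longer forms, each of which contains the core, are a GGC form spelled ACGTGGC and a GTC form spelled ACGTGTC. The core of dehydration-responsive elements (DRE core) is CCGAC. The bZIP element known from proline-responsive promoters is ACTCAT. The heat shock element was searched as GAANNTTC. A place matched on both strands, or by a longer form, is counted once.
GolS2: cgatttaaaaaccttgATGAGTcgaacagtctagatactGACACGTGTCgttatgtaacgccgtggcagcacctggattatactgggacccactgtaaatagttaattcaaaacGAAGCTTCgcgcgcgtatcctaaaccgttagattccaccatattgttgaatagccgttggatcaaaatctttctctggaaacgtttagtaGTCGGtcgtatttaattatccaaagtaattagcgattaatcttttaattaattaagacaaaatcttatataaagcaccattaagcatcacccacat
GolS3: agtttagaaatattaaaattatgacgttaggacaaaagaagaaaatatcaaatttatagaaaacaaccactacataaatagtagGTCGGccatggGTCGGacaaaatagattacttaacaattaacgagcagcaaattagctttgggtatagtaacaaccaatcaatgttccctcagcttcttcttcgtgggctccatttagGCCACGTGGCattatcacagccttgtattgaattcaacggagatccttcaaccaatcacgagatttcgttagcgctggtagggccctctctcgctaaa
GolS4: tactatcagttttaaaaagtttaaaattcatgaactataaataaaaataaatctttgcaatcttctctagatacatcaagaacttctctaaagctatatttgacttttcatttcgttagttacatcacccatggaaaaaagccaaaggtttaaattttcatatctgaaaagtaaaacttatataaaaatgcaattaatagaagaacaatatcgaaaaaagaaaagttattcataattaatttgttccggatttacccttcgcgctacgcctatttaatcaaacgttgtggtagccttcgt
These windows lie at chr1:21207237-21207536 (plus strand), chr1:3019339-3019638 (plus strand) and chr1:22280594-22280893 (minus strand). GolS2 has 1 ABRE core, in its GTC form read from both strands (positions -261 to -252 from the annotated gene start), and 1 place each of the DRE core, the bZIP element and the heat shock element. GolS3, the gene that fell, has 1 ABRE core in its GGC form on both strands (positions -98 to -89) and 2 DRE cores. GolS4 has no match to any of the 6 motifs in 300 bases, and none in 1000. The pair that was silent in mock differs in these letters, and within 300 bases GolS3 has the core in a different longer form from GolS2. Within 1000 bases GolS2 has 4 places of the ABRE core, 2 of them in the GTC form. GolS3 has 2 there, 1 of them in the GGC form and 0 in the GTC form. Of 27443 gene starts, 25.6% have an ABRE core within 300 bases, 3.72% its GGC form, 4.05% its GTC form, 13.9% a DRE core, 14.8% a bZIP element and 11.5% a heat shock element. A match is a description of letters, not a site shown to act.

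RS5, the raffinose synthase gene, rose by less than GolS2 and GolS4 but stood at a higher level per kilobase of coding sequence in every group. It had 146, 133 and 177 CPM in the vnd123 ABA libraries, against 110.0, 113 and 115 CPM in the vnd123 mock libraries. In vnd7 it had 167, 138 and 164 CPM in ABA, against 99.5, 100.0 and 109 CPM in mock, and in Col-0 it had 151, 180 and 129.9 CPM in ABA, against 95.5, 113 and 110.5 CPM in mock. Every ABA library was above every mock library of its genotype. Under ABA its log2 fold change was 0.43 ± 0.11 in vnd123 (adjusted p 0.0057), 0.60 ± 0.11 in vnd7 (2.7e-04) and 0.53 ± 0.11 in Col-0 (0.0011). Without vnd123 ABA replicate 3, the highest of its group, the vnd123 value was 0.29 (adjusted p 0.070).

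P5CS1, the stress-induced isogene of the enzyme that sets the rate of proline synthesis, rose strongly in every genotype. It had 274, 254 and 258 CPM in the vnd123 ABA libraries, against 52.9, 52.5 and 58.4 CPM in the vnd123 mock libraries. In vnd7 it had 288, 275 and 264 CPM in ABA, against 48.0, 53.4 and 56.3 CPM in mock. In Col-0 it had 256, 317 and 231 CPM in ABA, against 49.5, 53.9 and 52.2 CPM in mock. The lowest ABA library, at 231 CPM, was far above the highest mock library, at 58.4 CPM. This was a log2 fold change of 2.26 ± 0.10 in vnd123 (adjusted p 1.4e-12), 2.39 ± 0.10 in vnd7 (5.6e-13) and 2.37 ± 0.10 in Col-0 (7.7e-13). Of 20869 genes tested, 366 rose further in vnd123, 351 in vnd7 and 365 in Col-0. P5CS1 overlaps AT2G39795 on the opposite strand by 91 bases, and that gene, at 582 to 1216 reads per library, passed the test in no genotype.

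P5CS2, the isogene known for housekeeping roles, had slightly lower means under ABA. It averaged 154 ± 8.81 CPM in vnd123 ABA and 184 ± 13.3 CPM in vnd123 mock, 163 ± 10.14 CPM in vnd7 ABA and 179.9 ± 6.52 CPM in vnd7 mock, and 157 ± 16.0 CPM in Col-0 ABA and 179 ± 2.19 CPM in Col-0 mock. The log2 fold change was -0.26 ± 0.08 in vnd123 (adjusted p 0.013), -0.14 ± 0.08 in vnd7 (0.18) and -0.19 ± 0.08 in Col-0 (0.062). The vnd123 call was lost without vnd123 ABA replicate 3 or vnd123 mock replicate 1 (adjusted p 0.0504 and 0.085), and the Col-0 value passed with DESeq2 (adjusted p 0.042) and with 8 other settings. P5CS1 and P5CS2 share 86.3% of their coding bases, but no identical run longer than 53 bases, against reads of 150 bases. Per kilobase of coding sequence, P5CS1 made up 63.4% ± 0.665 of the pair in vnd123 ABA and 23.2% ± 1.74 in vnd123 mock, 63.1% ± 0.447 in vnd7 ABA and 22.8% ± 1.49 in vnd7 mock, and 63.3% ± 3.20 in Col-0 ABA and 22.7% ± 0.544 in Col-0 mock. The pair thus changed places in every genotype, with mean shares within 1 percentage point of each other across genotypes.

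P5CR, the last enzyme of the pathway, fell where P5CS1 rose. It averaged 124 ± 7.90 CPM in vnd123 ABA and 168 ± 6.83 CPM in vnd123 mock, 115 ± 1.74 CPM in vnd7 ABA and 177 ± 18.7 CPM in vnd7 mock, and 125 ± 13.9 CPM in Col-0 ABA and 189 ± 18.02 CPM in Col-0 mock. All 9 ABA libraries, at 109 to 134 CPM, were below all 9 mock libraries, at 161 to 209 CPM. Its fall was a log2 fold change of -0.44 ± 0.09 in vnd123 (adjusted p 7.1e-04), -0.62 ± 0.09 in vnd7 (1.7e-05) and -0.60 ± 0.09 in Col-0 (2.4e-05).

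ProDH1, the main proline dehydrogenase gene, known as a gene that drought represses and proline induces, fell in every genotype. It had 139, 83.8 and 113 CPM in the vnd123 ABA libraries, against 424, 304 and 361 CPM in the vnd123 mock libraries. In vnd7 it had 187, 181 and 202 CPM in ABA, against 487, 306 and 460.0 CPM in mock. In Col-0 it had 192, 265 and 157 CPM in ABA, against 443, 325 and 354 CPM in mock. The groups did not overlap in any genotype, and the mock libraries of each genotype spread widely. ABA over mock, its log2 fold change was -1.70 ± 0.20 in vnd123 (adjusted p 1.9e-06), -1.14 ± 0.20 in vnd7 (1.5e-04) and -0.87 ± 0.20 in Col-0 (0.0020).

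ProDH2, the second proline dehydrogenase gene, was far less abundant and showed no change past the test. It averaged 11.8 ± 1.019 CPM in vnd123 ABA and 13.8 ± 1.26 CPM in vnd123 mock, 13.7 ± 1.64 CPM in vnd7 ABA and 13.5 ± 3.24 CPM in vnd7 mock, and 13.9 ± 0.382 CPM in Col-0 ABA and 12.03 ± 1.90 CPM in Col-0 mock. The log2 fold change was -0.22 ± 0.15 in vnd123 (adjusted p 0.28), 0.03 ± 0.15 in vnd7 (0.91) and 0.20 ± 0.15 in Col-0 (0.33). Its libraries overlapped between ABA and mock in every genotype.

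**Figure D3:**
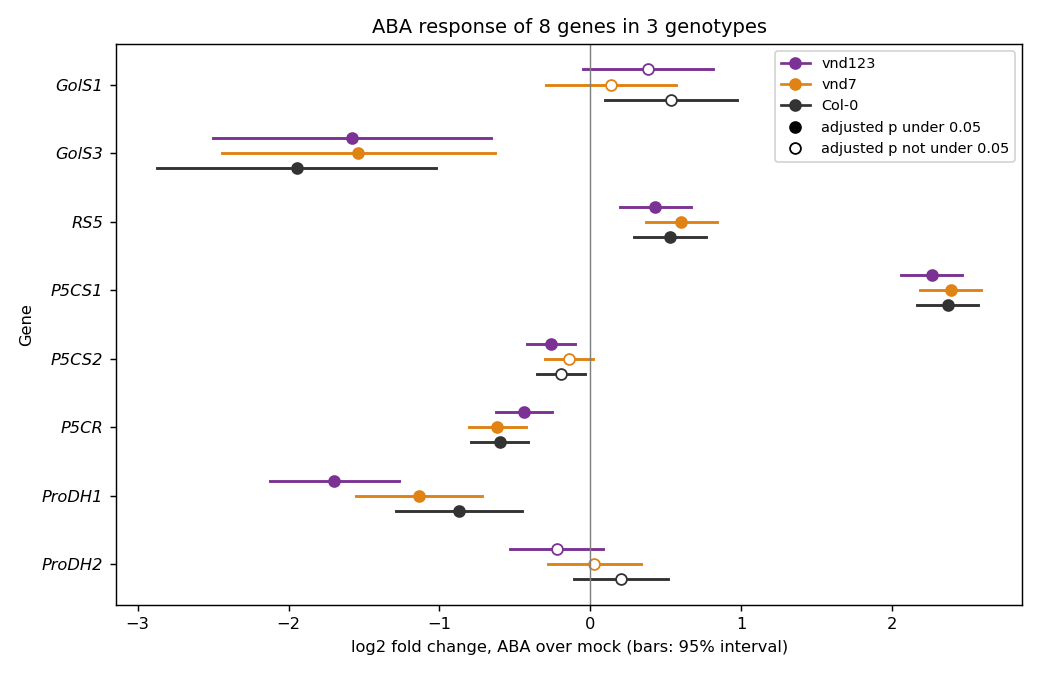
Log2 fold change of ABA over mock in vnd123, vnd7 and Col-0 for the 8 genes with reads in every mock library, with 95% intervals; filled points have an adjusted p under 0.05. P5CS1 lies near 2.3 in all 3 genotypes, P5CR near -0.5, and ProDH1 runs from -1.70 in vnd123 to -0.87 in Col-0. GolS2 and GolS4 are left out because their mock counts were 0 to 6 reads.

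The upstream windows of P5CS1 and ProDH1, the 2 proline genes that changed most in opposite directions, are given in the same form.
P5CS1: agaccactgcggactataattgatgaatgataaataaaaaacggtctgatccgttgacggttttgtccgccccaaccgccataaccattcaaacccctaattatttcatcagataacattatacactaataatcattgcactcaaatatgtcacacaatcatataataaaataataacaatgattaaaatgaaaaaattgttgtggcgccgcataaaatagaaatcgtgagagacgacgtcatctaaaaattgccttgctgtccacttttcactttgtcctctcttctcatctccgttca
ProDH1: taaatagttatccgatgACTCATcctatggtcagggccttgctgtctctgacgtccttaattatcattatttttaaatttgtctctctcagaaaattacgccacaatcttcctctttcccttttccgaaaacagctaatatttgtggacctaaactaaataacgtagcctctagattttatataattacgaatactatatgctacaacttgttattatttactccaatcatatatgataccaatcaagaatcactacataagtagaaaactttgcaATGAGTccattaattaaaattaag
They lie at chr2:16603320-16603619 (minus strand) and chr3:12451557-12451856 (minus strand). P5CS1 has no match to the 6 motifs in 300 bases and none in 1000, where 54.4% of gene starts have an ABRE core and 37.4% a DRE core. ProDH1 has 2 bZIP elements in 300 bases and 3 in 1000, where 44.1% of gene starts have at least 1, and no ABRE core in 1000. Of the other genes, GolS1 has 1 ABRE core in 300 bases and 1 heat shock element, RS5 1 DRE core, P5CR 1 ABRE core and 1 DRE core, P5CS2 1 DRE core and 1 bZIP element, and ProDH2 1 heat shock element. Thus 4 of the 10 genes have an ABRE core within 300 bases: GolS2, which rose, GolS3 and P5CR, which fell, and GolS1, which did not pass the test.

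**Figure D4:**
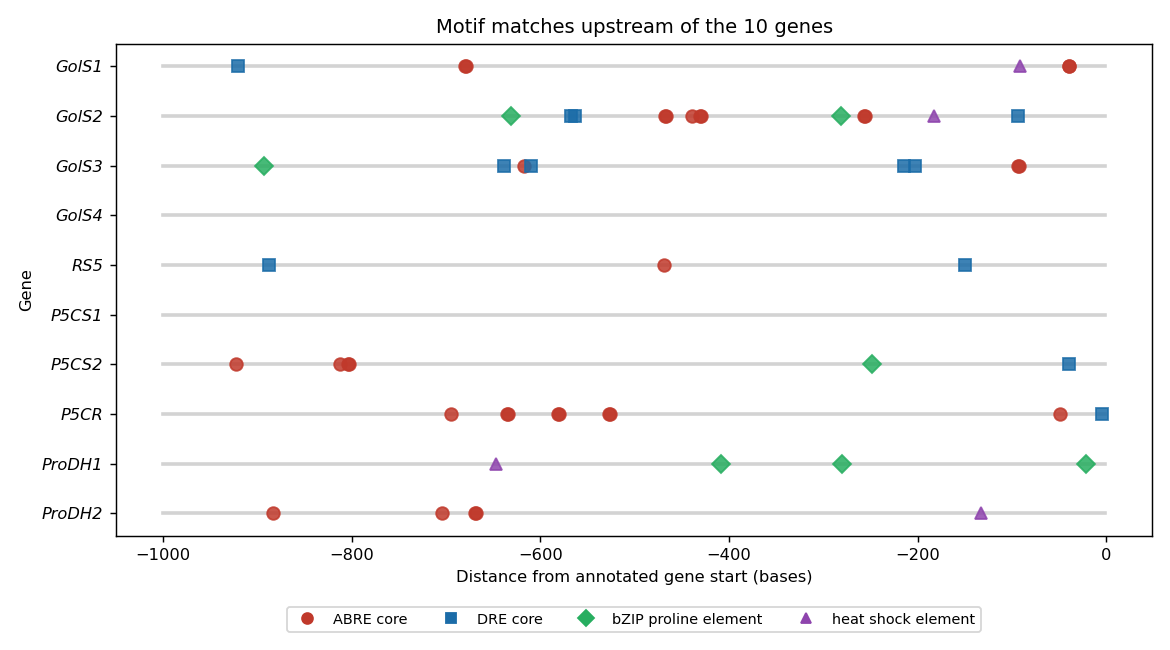
Places of the motifs in the 1000 bases upstream of each gene, as distance in bases from the annotated gene start. The tracks of GolS4 and P5CS1 are empty, and ProDH1 carries 3 bZIP elements and no ABRE core.

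Set beside each other per kilobase of coding sequence, the levels took a different order with and without ABA. In the mock groups ProDH1 and P5CR led, at 242 ± 39.8 and 202 ± 8.22 CPM per kb in vnd123 mock, 278 ± 65.3 and 212 ± 22.5 in vnd7 mock, and 249 ± 41.0 and 228 ± 21.7 in Col-0 mock, and the libraries of these 2 genes overlapped in each genotype. P5CS2, RS5 and P5CS1 came next in that order in every mock group, with no overlap between neighbours. In the ABA groups P5CR had the highest mean, at 149 ± 9.50 in vnd123, 139 ± 2.09 in vnd7 and 150.1 ± 16.7 in Col-0, and its libraries overlapped with those of ProDH1, the next gene, in Col-0 ABA. P5CS1 came second by its mean in vnd123 ABA and vnd7 ABA and after ProDH1 in Col-0 ABA, and the libraries of P5CS1 and ProDH1 overlapped in vnd7 ABA and Col-0 ABA. GolS3 was last in all 3 ABA groups, while GolS2 and GolS4 were the last 2 in all 3 mock groups. The ratio of P5CS1 to ProDH1 per kilobase, synthesis over breakdown, was 1.69 ± 0.381 in vnd123 ABA and 0.107 ± 0.0174 in vnd123 mock, 1.01 ± 0.0915 in vnd7 ABA and 0.0919 ± 0.0272 in vnd7 mock, and 0.930 ± 0.0951 in Col-0 ABA and 0.0986 ± 0.0192 in Col-0 mock. All 3 vnd123 ABA libraries, at 1.37 to 2.11, were above the 6 ABA libraries of vnd7 and Col-0, at 0.835 to 1.07. In ABA, P5CS1 in vnd123 was at log2 -0.03 ± 0.09 against Col-0 and -0.07 ± 0.09 against vnd7. The ratio thus restates the ProDH1 difference described next. The ProDH1 call against Col-0 was kept in 10 of 18 fits with 1 library left out, and ProDH1 did not pass against vnd7 (adjusted p 0.11).

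ProDH1 was the single gene of the 10 to pass the test between genotypes. In ABA its log2 fold change in vnd123 over Col-0 was -0.87 ± 0.20 (95% interval -1.29 to -0.45, adjusted p 0.039), where 0.944% of all genes tested were lower and 0.144% higher. The 3 vnd123 libraries, at 83.8 to 139 CPM, lay below the 3 Col-0 libraries, at 157 to 265 CPM. ProDH2, at 10.8 to 12.8 CPM in vnd123 ABA and 13.4 to 14.2 CPM in Col-0 ABA, did not overlap either, but its log2 fold change of -0.23 ± 0.15 did not pass (adjusted p 0.66). For 2 of 10 genes the groups did not overlap, beside 13.8% of all genes. The ProDH1 call was lost without Col-0 ABA replicate 2 (log2 -0.62, adjusted p 0.31) or vnd123 ABA replicate 2 (-0.69, 0.24). The fold change stayed near its full size but the call was also lost without Col-0 ABA replicate 1 (log2 -0.91, adjusted p 0.087), vnd123 ABA replicate 3 (-0.85, 0.11), vnd123 mock replicate 3 (-0.87, 0.053) or any one of the vnd7 ABA libraries (-0.87 to -0.85, 0.0504 to 0.054), and with the fit of only the 2 groups compared (-0.865, 0.082). The summed shoot and photosynthesis markers were also lower, at 60.6 to 74.6 CPM in vnd123 ABA and 79.7 to 112 CPM in Col-0 ABA. Their part in the ProDH1 difference was not tested.

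Against vnd7 in ABA, ProDH1 in vnd123 had a log2 fold change of -0.76 ± 0.20 (interval -1.18 to -0.34, adjusted p 0.11), so 0 of 10 genes passed there, beside 0.125% of all genes higher and 0.556% lower. It passed by a small margin with the replicate number as a block (0.049) and without the low-count filter (0.049). In mock, ProDH1 differed little, at -0.04 ± 0.20 in vnd123 against Col-0 (interval -0.45 to 0.37, adjusted p 0.98). In mock, 0 of 10 genes passed for vnd123 against Col-0 (0.125% of all genes higher, 0.484% lower), 0 for vnd7 against Col-0 (0.0479% and 0.0192%) and 0 for vnd123 against vnd7 (0.0431% and 0.45%). At an unadjusted p under 0.05 the count was also 0 in each of these 3, and DESeq2 called 0. GolS2 and GolS4 are among the 10, but they had 0 to 6 reads in each mock library. A difference between genotypes in mock was not detectable for them, so their part of these counts is not informative.

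For vnd7 against Col-0 in ABA, 0 of 10 genes passed with edgeR and 0 with DESeq2, 0 at an unadjusted p under 0.05, beside 0.0767% of all genes higher and 0.0863% lower. The intervals set how large a difference could have gone unseen. They were narrow for P5CS1 (log2 -0.15 to 0.23), P5CS2 (-0.10 to 0.22), P5CR (-0.30 to 0.07) and RS5 (-0.21 to 0.26), and wide for GolS2 (-1.01 to 0.74), GolS3 (-0.96 to 1.0205) and GolS4 (-0.48 to 0.82). For ProDH1 the value was -0.10 ± 0.20 (interval -0.52 to 0.31). That interval overlaps the interval of ProDH1 in vnd123 against Col-0 in ABA, -1.29 to -0.45. The comparisons of vnd123 and vnd7 with Col-0 share the Col-0 libraries.

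**Figure D5:**
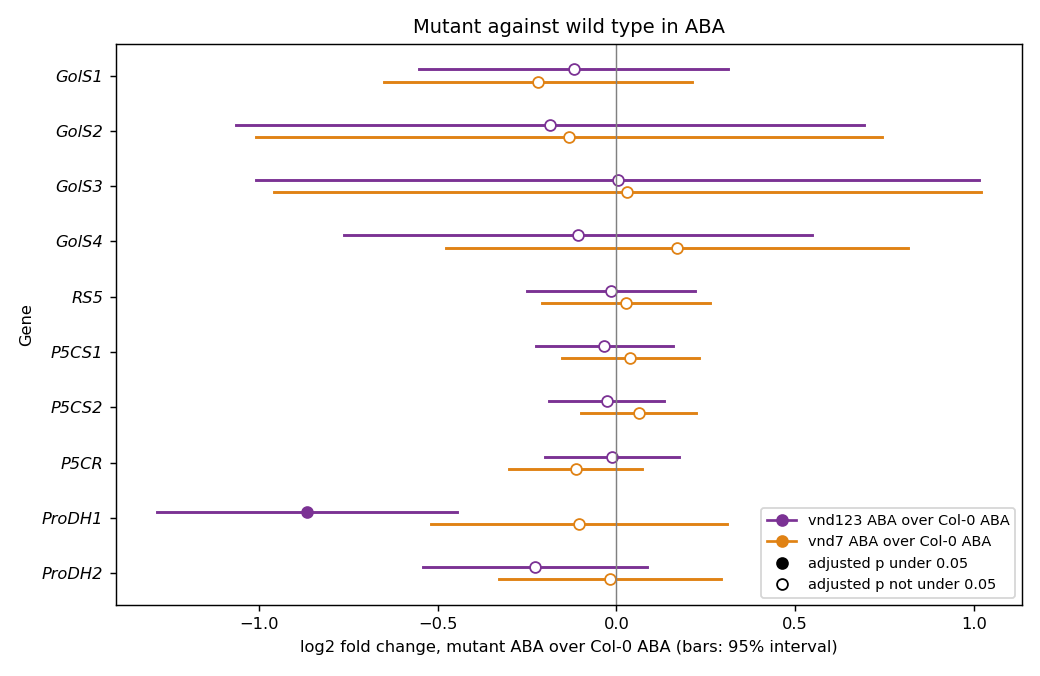
Log2 fold change of each mutant in ABA over Col-0 in ABA, with 95% intervals, for the 10 genes; filled points have an adjusted p under 0.05. ProDH1 in vnd123 is the single filled point, at -0.87, and the interval of every other gene in both mutants includes 0.

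The difference between the ABA responses was tested as an interaction. For vnd123 against Col-0, edgeR called 0 of 10 genes and 0% of all genes, DESeq2 called 0 of 10, and 748 genes of 20869 had an unadjusted p under 0.05. ProDH1 was 1 of these, with a difference between its log2 responses of -0.82 ± 0.28 (interval -1.41 to -0.24, unadjusted p 0.0085, adjusted p 1.00). For vnd7 against Col-0 edgeR again called 0 of 10 genes and 0% of all genes, 835 genes had an unadjusted p under 0.05, and none of the 10 was among them. ProDH1 gave -0.26 ± 0.28 there (interval -0.85 to 0.32, adjusted p 1.00). For P5CS1 the difference was -0.11 ± 0.13 in vnd123 (interval -0.38 to 0.16) and 0.02 ± 0.13 in vnd7 (interval -0.25 to 0.29). For GolS2 the interval was -4.01 to 8.94 in vnd123 and -5.76 to 2.99 in vnd7. For GolS4 it was -4.00 to 3.05 in vnd7. In vnd123 the GolS4 difference was log2 -0.025. So near 0, an SE taken as the log2 fold change over the root of F can be unstable. The GolS4 interval it gave in vnd123, -21.2 to 21.1, is thus not read as a measure of spread. With almost no mock reads, the interaction test cannot bound a difference for these 2 genes.

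The rest of the pathway was described from lists of 43 other genes, 37 of them tested. Their counts stand beside the share of all genes tested that rose under ABA, 18.6% in vnd123, 18.8% in vnd7 and 17.9% in Col-0, and the share that fell, 13.8%, 14.5% and 13.4%. Among other genes of raffinose and galactoside enzymes, synthase family genes included, 2 of 7 rose and 4 fell in each genotype. Their median log2 fold change was -0.39 in vnd123, -0.36 in vnd7 and -0.34 in Col-0. SIP1, of the seed imbibition family of alkaline alpha-galactosidases, averaged 116 ± 3.93 CPM in vnd123 ABA and 28.4 ± 2.17 CPM in vnd123 mock, with a log2 fold change of 2.02 ± 0.07 there (adjusted p 1.1e-13) and 2.06 ± 0.07 in Col-0 (1.0e-13). AGAL3, an alpha-galactosidase gene, rose by 0.44 ± 0.07 in vnd123 and 0.48 ± 0.07 in Col-0. RS4, of the raffinose and stachyose synthase family, fell, with -2.58 ± 0.32 in vnd123 and -1.92 ± 0.31 in Col-0, at under 3 CPM on average in every group. DIN10, a raffinose synthase family gene known as dark-inducible, averaged 78.4 ± 27.6 CPM in vnd123 ABA and 464 ± 179.9 CPM in vnd123 mock, and 166 ± 55.3 CPM in Col-0 ABA and 442 ± 125 CPM in Col-0 mock. Its log2 fold change was -2.56 ± 0.31 in vnd123 (adjusted p 2.1e-06), -1.64 ± 0.30 in vnd7 (2.3e-04) and -1.41 ± 0.30 in Col-0 (0.0010), the order of genotypes seen for ProDH1. As for ProDH1, the interaction of vnd123 with Col-0 did not pass (DIN10 log2 -1.15 ± 0.42, adjusted p 1.00). In ABA, DIN10 in vnd123 against Col-0 was at -1.08 ± 0.30 and did not pass (adjusted p 0.10). AGAL2, another alpha-galactosidase gene, fell under ABA, with -0.22 ± 0.08 in vnd123 and -0.37 ± 0.08 in Col-0, and in mock its vnd123 over Col-0 value was -0.39 ± 0.08 (adjusted p 0.013).

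Of 6 other genes that carry the GolS name, 2 were tested, and 0 rose in vnd123, 1 in vnd7 and 1 in Col-0. The gene was GolS8, at 0.67 ± 0.12 in vnd7 (adjusted p 1.6e-04), 0.66 ± 0.12 in Col-0 (2.0e-04) and 0.30 ± 0.12 in vnd123 (0.063). GolS8 shares 59.2% to 61.3% of coding bases with GolS1 to GolS4, which share 70.7% to 83.3% with each other. Whether GolS8 makes galactinol was not tested. Genes that supply the substrates of galactinol synthase were listed together with myo-inositol oxygenase genes, which use up 1 of these substrates. Of the 12 tested, 5 rose in each genotype, beside 17.9% to 18.8% of all genes. In vnd123 4 fell, in vnd7 4 and in Col-0 3, beside 13.4% to 14.5%. Their median log2 fold change was -0.08 in vnd123, -0.095 in vnd7 and -0.02 in Col-0. MIOX1, a myo-inositol oxygenase gene, which drains myo-inositol, averaged 39.2 ± 2.53 CPM in vnd123 ABA and 2.38 ± 0.257 CPM in vnd123 mock, with a log2 fold change of 4.04 ± 0.18 (adjusted p 1.8e-12) and 4.12 ± 0.18 in Col-0 (1.7e-12). MIOX2, of the same enzyme, fell instead, with -2.02 ± 0.25 in vnd123 and -1.45 ± 0.24 in Col-0. The UDP-glucose epimerase genes UGE5 and UGE2, which make UDP-galactose, rose, with 1.41 ± 0.10 and 1.63 ± 0.10 in vnd123 and 1.64 ± 0.10 and 1.28 ± 0.10 in Col-0. MIPS3, a myo-inositol phosphate synthase gene, fell, with -1.61 ± 0.07 in vnd123 (adjusted p 1.3e-12) and -1.58 ± 0.07 in Col-0 (1.4e-12). MIPS1, of the same enzyme, was at -0.14 ± 0.07 in vnd123 (0.15) and -0.24 ± 0.07 in Col-0 (0.014). MIPS2, also of this enzyme, was higher under ABA, at 11.8 ± 1.87 CPM in vnd123 ABA and 6.94 ± 0.659 CPM in vnd123 mock. It averaged 11.9 ± 1.62 CPM in vnd7 ABA and 6.11 ± 0.32 CPM in vnd7 mock. In Col-0 it averaged 11.97 ± 1.67 CPM in ABA and 7.25 ± 0.926 CPM in mock. The ABA and mock libraries of MIPS2 did not overlap in any genotype.

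Of 7 other genes of proline metabolism and transport, 4 rose in vnd123, 5 in vnd7 and 5 in Col-0, beside 17.9% to 18.8% of all genes, and 0 fell, beside 13.4% to 14.5%. Their median log2 fold change was 0.30 in vnd123, 0.40 in vnd7 and 0.47 in Col-0. P5CDH, which takes the product of proline dehydrogenase on to glutamate, rose by 0.57 ± 0.07 in vnd123 (adjusted p 3.9e-06), 0.73 ± 0.07 in vnd7 (1.3e-07) and 0.65 ± 0.07 in Col-0 (6.5e-07), against the fall of ProDH1 one step before it. OAT, ornithine aminotransferase, rose by 0.30 ± 0.07 in vnd123 and 0.47 ± 0.07 in Col-0. LHT1, an amino acid transporter gene, rose by 0.41 ± 0.10 in vnd123 and 0.66 ± 0.10 in Col-0. Among 9 genes of C and S1 group bZIP factors, some of which are known to bind the bZIP element of ProDH1, 4 rose, beside 17.9% to 18.8% of all genes, and 3 fell, beside 13.4% to 14.5%, in each genotype. The median log2 fold change of these 9 was 0.22 in vnd123, 0.20 in vnd7 and 0.25 in Col-0. bZIP44 rose by 1.48 ± 0.09 in vnd123 and 1.39 ± 0.09 in Col-0, and bZIP11 by 0.79 ± 0.12 and 0.70 ± 0.12. bZIP63 fell, with -1.42 ± 0.15 in vnd123, -1.24 ± 0.14 in vnd7 and -0.995 ± 0.14 in Col-0 (adjusted p 2.8e-07, 1.1e-06 and 1.9e-05). bZIP2 was at -0.46 ± 0.08 in vnd123 and -0.55 ± 0.08 in Col-0, and bZIP10 at -0.19 ± 0.06 and -0.17 ± 0.06, and both fell by the test in each genotype. bZIP9 rose by 0.50 ± 0.09 in vnd123 and 0.64 ± 0.09 in Col-0, and in ABA it was lower in vnd123, at 64.2 ± 2.43 CPM, than in Col-0, at 87.6 ± 5.11 CPM (log2 -0.45 ± 0.09, adjusted p 0.013).

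Genes with the most similar pattern were ranked by the root mean square difference of group means over the 6 groups, each gene centred on its own mean. The means were of log2 CPM with a prior count of 2, which draws levels near 0 together. For GolS4 the nearest was KIN1, a stress-induced gene, at 0.189, then TSPO at 0.199, and KIN1 was also nearest to GolS2, at 0.331, followed by AT5G50360. P5CS1 lay nearest to AT2G30550 (0.0541) and XTH13 (0.0557), and RS5 nearest to BLH3 (0.0149) and AT5G45280 (0.0175). ProDH1 had no neighbour closer than AT5G28610, at 0.0966, with log2 fold changes under ABA of -1.50 in vnd123, -1.23 in vnd7 and -0.92 in Col-0, then AT5G24490 at 0.133. The nearest genes were RPP27 and IGMT2 for GolS3, UMAMIT41 and AT2G42300 for P5CR, AT5G04860 and ARIA for P5CS2, AT3G18300 and ORC2 for GolS1, and AT5G42140 and AT4G20040 for ProDH2. Genes that vary little have small distances by construction, so distances are not comparable between the 10 genes.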

How the data were processed

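Per the labels' protocols, column-purified root RNA went into a library kit without strand information and was read as 150-base pairs. The submitters' processing notes list HISAT2 and HTSeq. Their versions, the build and the annotation were not given in the sources used here. Whole-number raw counts per gene were deposited by the authors. Of 34218 features, 1385 had no locus code and took at most 0.00106% of a library's counts. Of 32833 locus codes, 32548 were found in the RefSeq annotation of TAIR10.1, which gave coding lengths, overlaps and upstream sequence. No table of protein sequences was used here.

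Counts were analysed in R 4.3.3 with edgeR 4.0.16, with filterByExpr by group and TMM scaling. All 18 libraries entered 1 quasi-likelihood fit with a term for each group (common biological coefficient of variation 0.106), and each comparison was a contrast with Benjamini-Hochberg adjustment over 20869 genes. SE was the log2 fold change over the root of F. No pair of replicates matched within sampling noise (chi-square per degree of freedom 8.87 to 30.6), so every library was kept. The scripts were tested on simulated counts. Alternatives were other scalings, no filter, a replicate block, only the groups compared, DESeq2 1.42.0 and leaving out each library. The 10 genes, the lists of other pathway genes and the tests were chosen with earlier results of these data known. Named by rule were the 10 genes, up to 3 genes per list and direction with the smallest p in Col-0, and the 2 nearest patterns per gene. MIPS2 was named outside this rule, beside MIPS1 and MIPS3.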

Additional observations from a re-analysis of the deposited data

How the results depend on the processing

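Over the 10 genes and all comparisons, 2634 alternative values were computed. Of these, 2502 kept their side of the threshold and their sign, 12 lost a call, 17 gained one, and 103 that passed neither as reported nor in the alternative changed sign. Of values called in either, 0 changed sign. The count for vnd123 against Col-0 in ABA, 1 as reported, was 0 with only the groups compared and 0 to 1 with each library left out. The count for vnd123 against vnd7 in ABA, 0 as reported, was 1 (ProDH1) with no low-count filter and 1 with the replicate block. Same-numbered replicates of different groups correlated at -0.08 to 0.20 after group means were removed, over 0.1 for every pair in no comparison, so the numbers were not taken to pair the samples. With the block, Col-0 called 9 genes in place of 7 under ABA and vnd123 and vnd7 stayed at 8 and 7, as GolS1 and P5CS2 passed in Col-0 (adjusted p 0.029 and 0.033). GolS1 in Col-0 also passed without Col-0 ABA replicate 3 (0.013), without Col-0 mock replicate 1 (0.015), and with no filter (0.048). P5CS2 passed with unscaled library sizes in Col-0 (0.0089) and vnd7 (0.024), a scaling that moved the median of all genes by less than 0.1 on the log2 scale. That scaling called 3085 genes higher of 6923 in vnd123 under ABA, in place of 3872 of 6757. It called 3053 of 7502 in vnd7, in place of 3916 of 6942, and 3050 of 7125 in Col-0, in place of 3743 of 6532. DESeq2 called more genes in the comparisons of genotypes, 407 in place of 227 for vnd123 against Col-0 in ABA, 286 in place of 142 for vnd123 against vnd7 in ABA and 159 in place of 34 for vnd7 against Col-0 in ABA. In mock it called 235 in place of 127, 167 in place of 103 and 38 in place of 14, in the same order, and 6 in place of 0 for the vnd123 interaction. With only the groups compared, vnd7 against Col-0 in ABA had 56 calls in place of 34, the vnd123 interaction had 1 in place of 0, and GolS2 and GolS4 failed the filter in mock comparisons of genotypes and gave no value. The cause of these shifts was not tested. GolS2 and GolS4 had 0 to 6 reads in each mock library, a depth at which differences between genotypes in mock were not detectable. GolS2, GolS3 and GolS4 had the widest intervals between genotypes of the 10 genes in ABA too, and what sets their width there was not tested.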

Other observations

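In mock roots the level of ProDH1 varied by replicate number in the same order in each genotype, highest in replicate 1 and lowest in replicate 2. It was at 424, 304 and 361 CPM in vnd123, 487, 306 and 460.0 CPM in vnd7, and 443, 325 and 354 CPM in Col-0, for replicates 1, 2 and 3. No label says that a replicate number marks a shared batch. This was noticed after the values were seen and was not tested.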
